A study of Mus musculus with 6 samples.

Results

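The genes described here are 7 regulators of pharyngeal and cardiac progenitor mesoderm: the forkhead transcription factors Foxc1, Foxc2, Foxf1 and Foxf2, the homeobox factor Six2, and the co-activators Eya1 and Eya2. They were chosen by name. A probe set, the group of array probes that together give 1 signal, was taken as a member when the platform annotation named one of these genes and no other, which gave 12 of the 45037 probe sets other than controls, and 7 of the 18193 genes that have such a probe set. None of the 7 genes was also named by a probe set shared with another gene (0 such probe sets). Hearts of CD1 mouse embryos at embryonic day 10.5 were dissected into superior and inferior subdomains of the outflow tract, the tube that carries blood out of the heart and later divides into the aorta and pulmonary trunk. Total RNA from 3 superior pools and 3 inferior pools, numbered 1, 6 and 7 in both regions, was hybridised to 6 Affymetrix mouse expression arrays. All pools were of the same strain and stage, and the labels name no mutation or treatment. Each pool joined pieces from 6 littermate embryos per the sample labels and 7 dissected samples per the design text. Nothing in these sources says whether pools came from separate litters. With regions paired by pool number, the p-values measure how much the region difference varies over these pools only, with variance shared across probe sets. RNA was taken with Trizol and then cleaned up per the sample labels, whereas the design text names the RNeasy kit only. In tissue pieces of this kind, fewer cells of a type and less RNA per cell cannot be told apart.

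The outflow tract grows by adding cells from the second heart field, a population of progenitors in the pharyngeal mesoderm behind the heart. Foxc1 and Foxc2 have overlapping roles in that mesoderm, in neural crest derivatives and in vessels, and mouse embryos that lack both do not form a normal outflow tract. Foxf1 and Foxf2 act in splanchnic mesoderm and respond to hedgehog signals from the neighbouring endoderm. SIX-family proteins bind DNA, whereas EYA proteins do not bind DNA by themselves but join SIX-family proteins as co-activators and also carry a phosphatase domain. Six2 is known from kidney progenitors and also marks second heart field progenitors, and Eya1 is needed for outflow tract growth in the mouse.

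In the RefSeq gene table of assembly GRCm38.p6, the 4 forkhead members lie in 2 clusters. Foxf1 and Foxc2 are on chromosome 8 with Mthfsd between them and Foxl1 beyond Foxc2, while Foxf2 and Foxc1 are on chromosome 13, with no protein-coding gene between them, Foxq1 on the Foxf2 side and Gmds on the Foxc1 side. Six2 is next to Six3 on chromosome 17, Eya1 is next to the muscle factor gene Msc on chromosome 1, and Eya2 is on chromosome 2. RefSeq start-site windows, from 250 bases before to 50 bases after the start, were at hand for 3 of the 7 members: Foxc1, Foxf2 and Six2. They were searched on both strands for 5 motifs, 3 of them of proteins in the circuits of these genes and the others the general CCAAT box and TATA box. The forkhead motif was TGTTTAC. The motif of GLI, the hedgehog effectors, was GACCACCCA. The motif of SIX-family proteins was TCAGGTT. The TATA box was read as TATAAA and the CCAAT box as the letters of its name. The Foxc1 and Six2 windows are shown because they held matches, all to the CCAAT box, which are in capitals on whichever strand they were found. The Foxc1 window is chr13:31806396-31806695 on the + strand and the Six2 window chr17:85688205-85688504 on the - strand of GRCm38.p6.
Foxc1: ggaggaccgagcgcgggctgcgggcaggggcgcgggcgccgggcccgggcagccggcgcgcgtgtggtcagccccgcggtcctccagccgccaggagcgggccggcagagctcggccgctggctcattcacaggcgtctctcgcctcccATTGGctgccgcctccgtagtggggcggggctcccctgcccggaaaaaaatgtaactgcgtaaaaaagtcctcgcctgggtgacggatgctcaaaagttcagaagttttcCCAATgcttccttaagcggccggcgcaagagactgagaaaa
Six2: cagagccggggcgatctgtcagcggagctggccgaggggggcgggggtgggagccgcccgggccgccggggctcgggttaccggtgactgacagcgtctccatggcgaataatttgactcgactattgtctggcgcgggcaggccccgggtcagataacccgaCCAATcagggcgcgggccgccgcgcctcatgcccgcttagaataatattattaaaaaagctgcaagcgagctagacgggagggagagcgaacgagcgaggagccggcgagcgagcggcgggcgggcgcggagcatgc

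The Foxc1 window had 2 CCAAT matches and the Six2 window 1, and 37.4% of all 32851 start-site windows in that table hold at least 1. The Foxf2 window held no match to any of the 5 motifs. For the other motifs the share of all windows was 3.65% for the forkhead motif, 0.253% for GLI, 4.07% for the SIX-family motif and 13.6% for the TATA box. All 3 windows were rich in G and C, with 67.3% in Foxc1, 71.3% in Foxf2 and 67.3% in Six2, against a median of 52.7% over all windows. A match, or none, describes these letters and says nothing of whether a factor binds.

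The deposited values are MAS5 signals on a linear scale, with the trimmed mean of every array at 100. Signals above 8, the highest value of the 27 Bacillus control probe sets, are called above background. Cardiac muscle markers were above background on all 6 arrays for 8 of 8 genes, as were 8 of 8 endothelial and 8 of 8 cushion mesenchyme markers. Among the arrays, superior 6 had the brightest hybridisation controls, at 1.64 times the median array. Inferior 7 had the highest median signal, 17.6 against 13.9 to 16.1 on the other arrays. It also had the largest share of probe sets above background, 63.1% against 58.4% to 62.1%. Pool 1 stood apart in RNA measures: the ratio of the 3' to the 5' Gapdh control probe set was 1.30 on the superior 1 array and 2.21 on the inferior 1 array, against 0.832 to 0.899 on the other 4. A two-sided exact permutation test between regions gave p = 0.4 for the hybridisation controls and p = 0.9 for the Gapdh ratio, where 3 against 3 arrays can give no p below 0.1.

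Of the 7 genes, 5 had a probe set above background on all 6 arrays: Foxc1, Foxc2, Foxf1, Six2 and Eya1. These had 6 probe sets between them, and the same 6 passed the filter on dim signals and entered the test between regions. Foxf2 had 1 probe set above background on 4 of 6 arrays, and the single Eya2 probe set was above background on 0 of 6.

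No member probe set was called between the superior and inferior pools. The test was limma on log2(signal + 3.2), with the pool number as a block and Benjamini-Hochberg adjustment over 22518 probe sets. The labels do not say that same-numbered superior and inferior pools share embryos, and all calls given below rest on this pairing: 36 probe sets were called with the pool number and 0 without it. The 95% intervals given below also rest on this pairing, and for every tested member probe set the interval without the pool number was wider. The test called 0 of the 6 members tested at an adjusted p threshold of 0.05, beside 0.160% of all probe sets tested. At an unadjusted threshold of 0.05 it again passed 0 of 6, beside 11.0% of all. The fit without the pool number called 0 members and 0.00% of all, and at the unadjusted threshold it passed 0 of 6 members, beside 3.52% of all. Of the 6, 3 had a log2 difference above 0 and 3 below 0. Their median absolute log2 difference was 0.18, beside 0.12 over all probe sets tested, with a median standard error of 0.18 for the members and 0.13 over all.

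**Figure D1:**
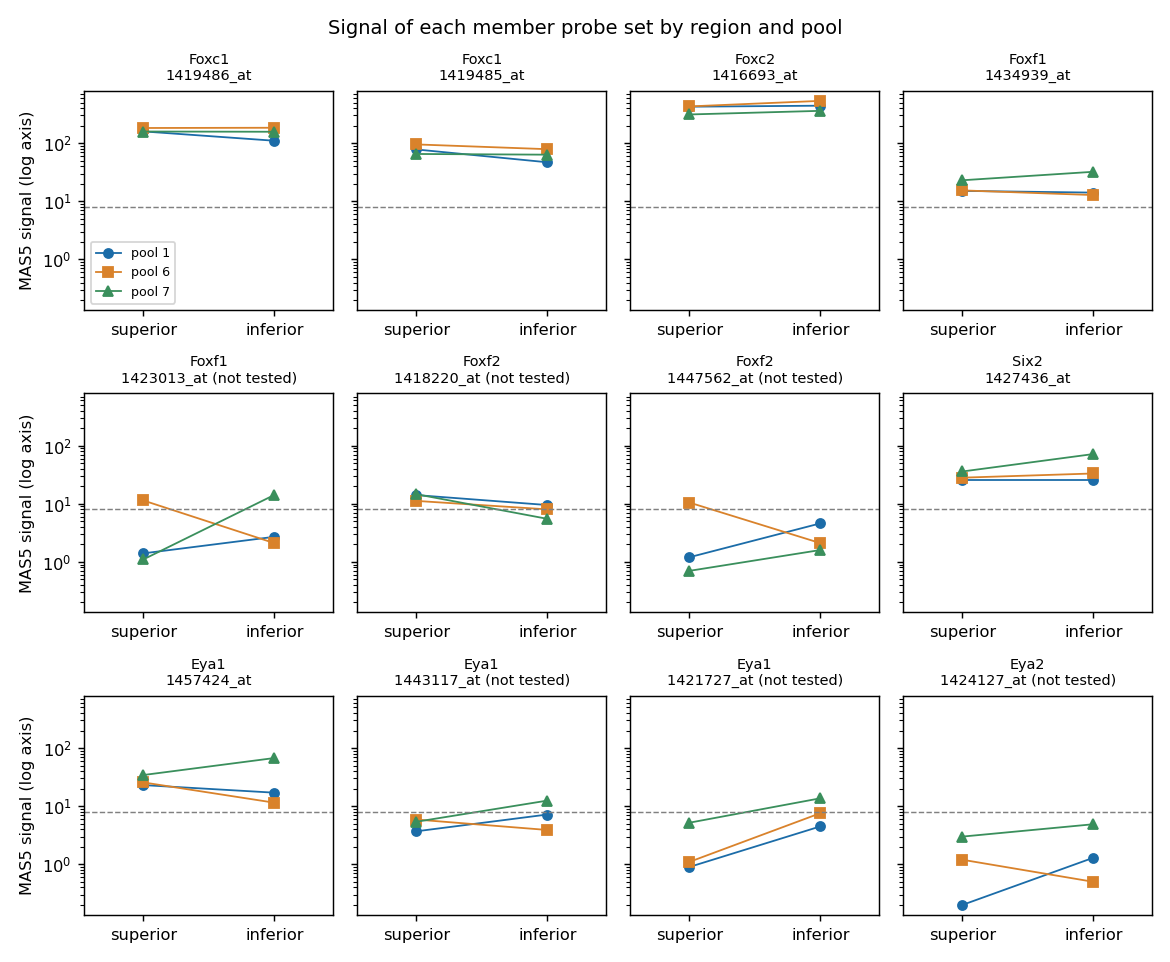
MAS5 signal (log axis) of each of the 12 member probe sets in superior and inferior pools, with a line joining the arrays of a pool and a dashed line at the background signal of 8. Both Foxc1 probe sets and the Foxc2 probe set lie far above the dashed line on every array, while Eya2 lies below it on all 6.

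Foxc1 was clearly expressed in both regions, with overlapping signals in its brighter probe set and its dimmer one. Its brighter probe set (1419486_at) had signals of 159.4, 182.5 and 158.7 in superior pools 1, 6 and 7, against 110.1, 184.2 and 157.2 in inferior pools 1, 6 and 7. The regions overlapped, and the inferior 1 array alone was low. The means were 167 ± 13.5 in superior and 150 ± 37.5 in inferior pools (SD, n = 3 each), a log2 difference of 0.17 ± 0.13 (SE; limma adjusted p = 0.671). Pool 1 alone gave a gap, of 0.52 on the log2 scale, beside -0.01 for pool 6 and 0.01 for pool 7. The dimmer probe set (1419485_at) had signals of 78.0, 95.2 and 65.2 in superior and 46.9, 78.8 and 63.4 in inferior pools. It too was lowest on the inferior 1 array and was higher in superior in each of the 3 pools, by 0.70, 0.26 and 0.04 on the log2 scale in pools 1, 6 and 7. Its log2 difference was 0.33 ± 0.16 (adjusted p = 0.478). Such a direction in all 3 pools held for 15.0% of probe sets tested. The inferior 1 array, on which both probe sets were lowest, is the array with the Gapdh ratio of 2.21. The same ratio for the beta-actin control was 2.26 on inferior 1 and 2.23 on superior 1. The part of these RNA measures in the result was not tested. Without pool 1 the log2 differences were 0.00 for the brighter and 0.15 for the dimmer probe set.

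Foxc2, the closest relative of Foxc1 among the members, was slightly lower in superior pools in each pool. Its probe set (1416693_at) had signals of 424.5, 429.0 and 311.9 in superior pools 1, 6 and 7, against 441.5, 534.5 and 360.1 in inferior pools 1, 6 and 7. Pool 7 was the lowest of its region on both sides, and the regions overlapped. The means were 388 ± 66.3 in superior and 445 ± 87.3 in inferior pools, a log2 difference of -0.19 ± 0.09 (adjusted p = 0.494). The pool differences were -0.06, -0.32 and -0.21, and a lower value in all 3 pools held for 19.0% of probe sets tested. The 95% interval ran from -0.41 to 0.02, that is from 0.755 to 1.02 times the inferior level. For Foxc1 the intervals were 0.916 to 1.39 times for the brighter probe set and 0.985 to 1.61 times for the dimmer one. Within each pool the Foxc1 log2 difference lay above that of Foxc2, by 0.58, 0.30 and 0.22 for the brighter Foxc1 probe set, and 3 pools can give no two-sided exact sign-flip p below 0.25.

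**Figure D2:**
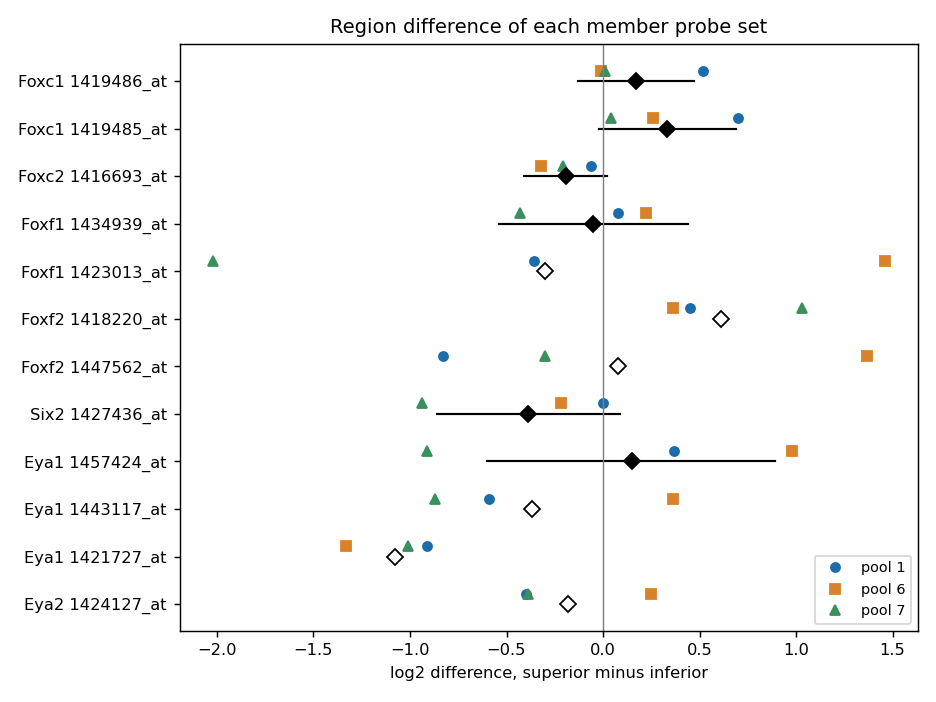
Log2 difference, superior minus inferior, of each member probe set: coloured points are the 3 pools, diamonds their mean, and lines the 95% interval of the paired limma fit for the 6 probe sets tested, with open diamonds for the 6 not tested, whose signals lie around or below background and whose differences depend on the offset. Every interval includes 0, and the pool points of the brightest Eya1 probe set run from -0.91 to 0.98.

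Foxf1 was near the lower end of what the arrays measure. Its brighter probe set (1434939_at) had signals of 15.1, 15.4 and 23.0 in superior and 14.1, 12.8 and 32.2 in inferior pools 1, 6 and 7. Both pool 7 arrays were above all the others, and the regions overlapped. The log2 difference was -0.05 ± 0.21 (adjusted p = 0.960), with 0.08, 0.22 and -0.43 in pools 1, 6 and 7. The interval of the paired fit was 0.690 to 1.36 times the inferior level. On the log2 scale that is -0.54 to 0.44, and without the pool number the interval was -0.84 to 0.75. The sign of the log2 difference turned under quantile normalization (0.02) and cyclic loess (0.03). The other Foxf1 probe set (1423013_at) was above background on 2 of 6 arrays, superior 6 at 11.4 and inferior 7 at 14.2, with 1.1 to 2.7 on the other 4, and was not tested.

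Foxf2 had the 1 member probe set whose regions did not overlap, at a dim signal. Probe set 1418220_at had signals of 14.1, 11.2 and 14.6 in superior pools, all above background, against 9.5, 8.0 and 5.5 in inferior pools, of which 1 of 3 was above background. The means were 13.3 ± 1.84 in superior and 7.67 ± 2.02 in inferior pools, and the superior signal was the higher one in all 3 pools. The inferior signals lie around background, so no fold is given: the mean log2 difference of 0.61 was set in part by the offset, at 0.74 with an offset of 1 and 0.31 with 16. This probe set failed the filter on dim signals and so has no test in the fit. With no filter its adjusted p was 0.700 and its unadjusted p 0.0555. The 1 member probe set with no overlap stands beside shares for both directions. Among all 45037 probe sets, 3.90% had 3 superior values above all 3 inferior ones and 4.62% had 3 superior values below them. Of all probe sets, 12.0% were higher in superior in all 3 pools. The second Foxf2 probe set (1447562_at) was above background on 1 of 6 arrays, superior 6 at 10.5, with 0.7 and 1.2 in the other superior pools and 1.6 to 4.6 in the inferior pools.

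Six2 was present in all pools and highest in one. Its probe set (1427436_at) had signals of 25.5, 28.1 and 35.9 in superior pools 1, 6 and 7, against 25.5, 33.2 and 71.7 in inferior pools 1, 6 and 7. The inferior 7 array was 2.00 times the next highest, and the rest of the inferior values lay within the superior range. The means were 29.8 ± 5.41 in superior and 43.5 ± 24.8 in inferior pools, a log2 difference of -0.39 ± 0.21 (adjusted p = 0.531). The pool differences were 0.00, -0.22 and -0.94, and without pool 7 the mean was -0.11. The interval was 0.552 to 1.06 times the inferior level.

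Eya1 was read by 3 probe sets, and its brightest gave no single direction across pools. This probe set (1457424_at) had signals of 23.1, 25.7 and 34.4 in superior and 17.1, 11.5 and 67.5 in inferior pools 1, 6 and 7. The inferior pools held both the lowest arrays and the highest one, so the superior values sat between them. Signals averaged 27.7 ± 5.92 in superior and 32.0 ± 30.8 in inferior pools, while the log2 difference was 0.15 ± 0.32 (adjusted p = 0.909), with pool values of 0.37, 0.98 and -0.91 for pools 1, 6 and 7. Without pool 7 it was 0.67 and without pool 6 it was -0.27. The interval of the paired fit, 0.659 to 1.86 times the inferior level, was the widest of the 6. On the log2 scale it was -0.60 to 0.89, and without the pool number -1.14 to 1.43.

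The other Eya1 probe sets were dim. Probe set 1421727_at had signals of 0.9, 1.1 and 5.2 in superior pools, none above background, against 4.5, 7.6 and 13.7 in inferior pools, of which 1 of 3 was. The superior signal was the lower one in all 3 pools, although the superior 7 value overlapped the inferior range. Such a direction in all 3 pools held for 15.9% of all probe sets. Because these signals lie around background, no size of difference is given. With no filter the adjusted p was 0.658 and the unadjusted p 0.0100. Probe set 1443117_at had 3.7, 5.9 and 5.4 in superior and 7.2, 3.9 and 12.5 in inferior pools, with 1 of 6 arrays above background. With nearly all values at or below background, these probe sets give no direction for the gene.

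Eya2 (1424127_at) had signals of 0.2, 1.2 and 3.0 in superior and 1.3, 0.5 and 4.9 in inferior pools, all below background, so its level has only an upper bound here.

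The members fell into different patterns over the 6 arrays. Six2, the brightest Eya1 and the brighter Foxf1 probe set were all highest on the inferior 7 array, where they stood 1.00, 1.28 and 0.75 above their own mean on the log2 scale. The inferior 7 array was also the highest of 6 for the other Foxf1, the other Eya1 and the Eya2 probe sets, which made 7 of 12 members, beside 22.2% of all probe sets. Foxc1 and Foxc2 did not share this, at 0.01 and -0.19 on that array. Neither did Foxf2, whose inferior 7 signal of 5.5 was its lowest in probe set 1418220_at. Superior 7 was the highest superior array for the same 3 probe sets of Six2, Eya1 and Foxf1, so both arrays of pool 7 were on the high side. This grouping was seen in the data and then described, and carries no test.

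**Figure D3:**
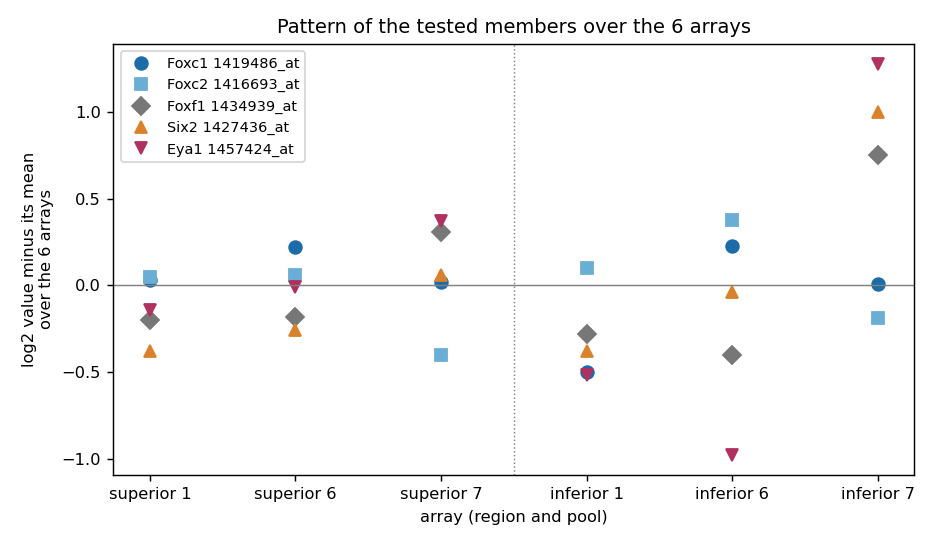
Log2 value of the brightest tested probe set of 5 members on each array (region and pool on the x axis), less its mean over the 6 arrays. Eya1, Six2 and Foxf1 stand at 1.28, 1.00 and 0.75 on the inferior 7 array, with Foxc1 and Foxc2 near 0 there.

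Shares over all probe sets are given beside these values as a description only. Six2, Eya1 and Foxf1 were picked because they were high on inferior 7. The signal range used below was set by their own means, which that array raises. The shares therefore cannot measure how unusual the 3 genes are. Without pool 7, the Foxf1 probe set did not pass the filter on dim signals. The inferior 7 array had the highest median signal of the 6, and the part of this in the members' values was not tested. Inferior 7 was the highest of the 6 arrays for 20.4% of probe sets tested, and for 28.1% of the 4366 whose mean signal lay between 18.8 and 36.6, the range of these 3 members. It exceeded the next array by more than 1.5 times for 1.81% of those 4366. Six2 and Eya1 passed that ratio, at 2.00 and 1.96, and Foxf1 did not. On the offset log2 scale, the ratio to the highest other array was 0.94 for Six2, 0.91 for Eya1 and 0.43 for Foxf1.

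**Figure D4:**
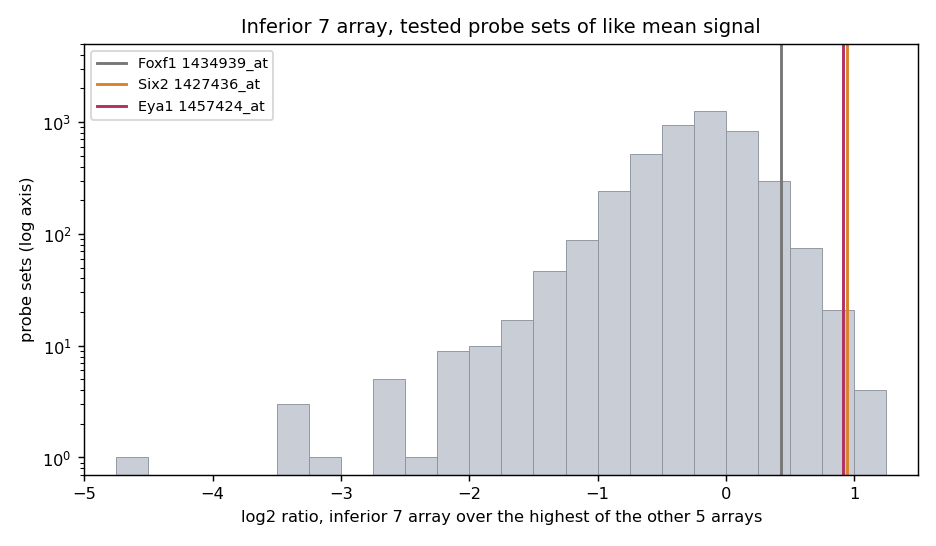
Histogram, over the 4366 tested probe sets of like mean signal, of the log2 ratio of the inferior 7 array to the highest of the other 5 arrays (count of probe sets on a log axis). Vertical lines mark Foxf1 at 0.43, Eya1 at 0.91 and Six2 at 0.94, with Eya1 and Six2 in the right tail. These genes were singled out after their values were seen.

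Other genes also peaked on that array. Tbx1, a T-box factor of pharyngeal mesoderm and endoderm, had signals of 37.7, 30.8 and 27.3 in superior and 45.2, 34.1 and 71.1 in inferior pools 1, 6 and 7. Dach1, a co-factor in the SIX-EYA circuit, had 30.4, 32.3 and 38.6 in superior and 44.5, 26.3 and 78.5 in inferior pools. The summed signal of 5 skeletal muscle progenitor genes (Myf5, Myod1, Myog, Pax7 and Pax3) was 16.4, 37.3 and 50.8 in superior and 16.6, 31.4 and 111.4 in inferior pools, with both pool 7 arrays highest of their region. Of those 5, 0 were above background on all 6 arrays, and inferior 7 was the highest array for 4. The summed signal of 9 genes of pharyngeal endoderm and other epithelium ranged from 1141 to 1323 in superior and from 939.6 to 1429 in inferior pools, highest on inferior 7. Most of this sum came from the keratin genes Krt8 and Krt18, at 740.4 and 559.9 on inferior 7 and 734.0 and 535.7 on superior 7. In that list Epcam, an epithelial adhesion protein, had 67.0 on inferior 7 and 14.2 to 27.0 on the other 5 arrays, and Cdh1, or E-cadherin, 46.7 against 11.0 to 30.0. The endoderm regulators Foxa2, Nkx2-1, Pax9, Pax1 and Shh were below background on inferior 7, between 0.4 and 7.6. The summed endothelial signal was 1553 to 2100 in superior and 1558 to 1942 in inferior pools, also highest on inferior 7 within its region, and that array was the highest of 6 for 4 of 8 endothelial genes. It was the highest for 0 of 8 cardiac muscle, 0 of 8 cushion mesenchyme and 0 of 8 epicardial genes. Among pharyngeal and second heart field mesoderm genes it was the highest for 7 of the 14 with a probe set. The count was 5 of 9 for epithelial, 2 of 7 for neural crest and 0 of 6 for erythroid genes. Over all probe sets the share was 22.2%. The part of these other genes and cell types in the Six2, Eya1 and Foxf1 values was not tested.

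The wider families of the members gave 0 calls. Of 40 other forkhead genes, 33 were named singly by a probe set, 14 were tested and 0 were called in either direction, with a median log2 difference of -0.08 beside -0.02 over all probe sets tested. Among the 14 tested, the 3 with the smallest p were Foxp2, Foxo3 and Foxp4. Forkhead genes that failed the filter on dim signals are not ranked here. Foxp2, a repressor with roles in nervous system and lung, had signals of 250.1, 351.9 and 358.6 in superior and 279.6, 540.3 and 402.8 in inferior pools 1, 6 and 7. This probe set was lower in superior in each pool (log2 -0.31 ± 0.11, adjusted p = 0.407), as were 19.0% of probe sets tested. The other tested Foxp2 probe sets gave log2 differences of -0.21, -0.19, -0.11 and 0.07. Foxo3, a factor restrained by insulin signals, differed by -0.22 ± 0.11 (adjusted p = 0.497; such values stand alone in parentheses from here on) and Foxp4 by -0.26 ± 0.14 (0.521). Of 9 other genes of the SIX-, EYA- and DACH-type families, 8 had a probe set, 5 were tested and 0 were called (median log2 -0.12). Dach1 differed by -0.40 ± 0.23 (adjusted p = 0.553), Six5 by 0.22 ± 0.14 (0.610) and Six4 by 0.16 ± 0.14 (0.705).

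Pharyngeal and second heart field mesoderm genes included the 1 call among all these lists. Of 15 genes 9 were tested, and 1 was called higher and 0 lower (median log2 -0.21), beside 0.0933% of all probe sets called higher and 0.0666% called lower. The call was Tcf21, a helix-loop-helix factor of pharyngeal mesoderm that also marks the epicardium. Its signals were 362.5, 461.6 and 310.8 in superior against 239.5, 266.5 and 192.0 in inferior pools, with no overlap (log2 0.69 ± 0.09, adjusted p = 0.0479 in the paired fit). Without the pool number in the fit its adjusted p was 1, with no filter on dim signals it was 0.195, and a second Tcf21 probe set gave 0.46 (adjusted p = 0.518). Tcf21 is also among 8 epicardial and mesothelial markers, of which 7 were tested and 4 were called higher in superior pools, the others called being Tbx18, Upk1b and Aldh1a2. The summed signal of those 8 was 1824, 1839 and 1068 in superior and 836.1, 910.2 and 666.4 in inferior pools, and its part in the Tcf21 value was not tested. Fgf8, a growth factor that second heart field cells need, had 17.9, 11.5 and 25.6 in superior and 44.3, 23.4 and 57.2 in inferior pools (log2 -1.03 ± 0.17, adjusted p = 0.0932). Isl1, a marker of these progenitors, differed by -0.31 ± 0.08 (adjusted p = 0.293).

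**Figure D5:**
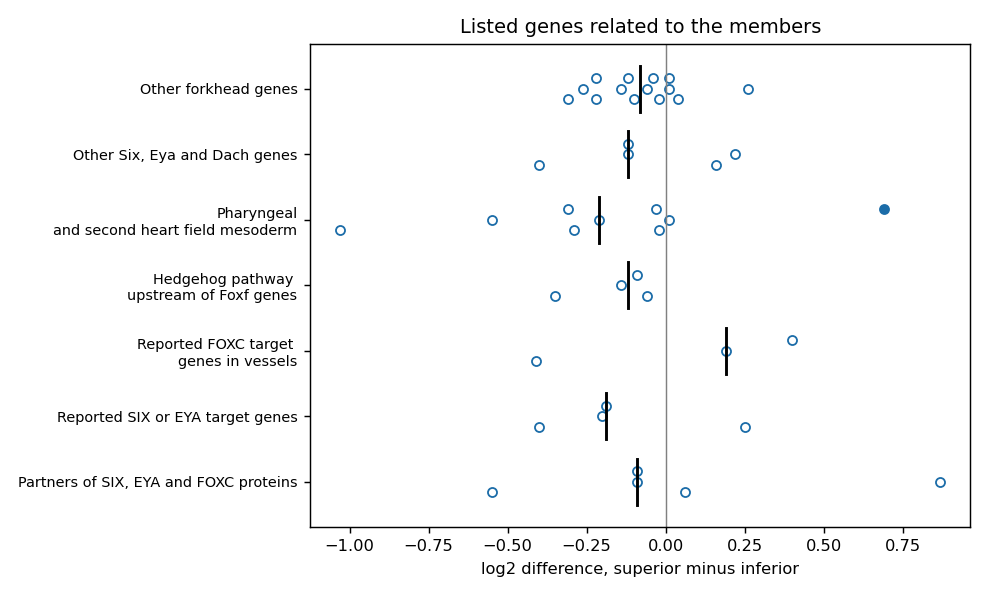
Log2 difference, superior minus inferior, of every tested gene in 7 lists related to the members (points), with the list median as a vertical bar. The filled point, Tcf21 at 0.69, passed the adjusted p threshold in the paired fit, and open points did not.

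Upstream, hedgehog signals act on Foxf genes. Of 8 hedgehog pathway genes, 4 were tested and 0 were called (median log2 -0.12). The transcription factor Gli3 had 211.2, 300.3 and 301.0 in superior and 244.1, 473.0 and 342.6 in inferior pools 1, 6 and 7 (log2 -0.35 ± 0.12, adjusted p = 0.378). The signal transducer Smo differed by -0.14 ± 0.10 (0.649) and Gli2 by -0.09 ± 0.11 (0.798). The ligand gene Shh had signals of 8.8, 8.8 and 9.9 in superior and 6.0, 3.1 and 3.0 in inferior pools, around background and not tested.

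Downstream, 4 genes reported as FOXC targets in vessels gave 3 tested and 0 called (median log2 0.19). Hey2, a Notch-responsive repressor, had 288.4, 291.4 and 235.4 in superior against 215.7, 223.1 and 178.4 in inferior pools, with no overlap. Its log2 difference of 0.40 ± 0.09 was nearly equal across pools, at 0.41, 0.38 and 0.39, and its adjusted p was 0.236. Of probe sets tested, 4.65% had all superior values above all inferior ones. The integrin gene Itgb3 differed by -0.41 ± 0.14 (adjusted p = 0.376) and the chemokine receptor gene Cxcr4 by 0.19 ± 0.13 (0.638). Of 6 genes reported as SIX-family or EYA targets, 4 were tested and 0 called (median log2 -0.19). The ion transporter gene Slc12a2 differed by -0.40 ± 0.11 (adjusted p = 0.293) in its brightest probe set, and its others gave -0.79 (0.0506) and -0.45 (0.295). The membrane linker gene Ezr differed by 0.25 ± 0.09 (0.416) and the cyclin gene Ccnd1 by -0.20 ± 0.09 (0.450).

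Of 10 partners of SIX-family, EYA and FOXC proteins, 5 were tested and 0 called (median log2 -0.09). Cited1, a transcriptional co-activator found with Six2 in kidney progenitors, had 249.7, 87.5 and 157.0 in superior and 96.8, 56.6 and 97.1 in inferior pools 1, 6 and 7. It was higher in superior within every pool, by 1.34, 0.60 and 0.68 on the log2 scale (0.87 ± 0.16, adjusted p = 0.111), although the regions overlapped across pools. Tbx1 differed by -0.55 ± 0.23 (adjusted p = 0.441), with -1.28 in pool 7, and the zinc finger gene Sall1 by -0.09 ± 0.18 (0.888).

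Of the genes beside the members on the chromosome, those tested were not called. Foxq1, Foxl1, Msc, Trpa1, Mylk4, Six3, Irf8 and 1700018B08Rik failed the filter on dim signals and have no test. Gmds, an enzyme gene next to Foxc1, had a log2 difference of 0.06 ± 0.11 (adjusted p = 0.889), and Mthfsd, between Foxf1 and Foxc2, -0.08 ± 0.12 (0.859). Foxq1, next to Foxf2, had signals of 10.5, 10.7 and 17.8 in superior and 13.2, 10.3 and 7.1 in inferior pools and was not tested. Foxl1 beyond Foxc2 was above background on 0 of 6 arrays, as were Msc and Trpa1 beside Eya1 and Mylk4 beyond Gmds. Six3, next to Six2, was above background on 1 of 6. On the other side of Six2, Srbd1 differed by -0.11 ± 0.12 (0.775) and Prkce, a protein kinase gene, by -0.18 ± 0.11 (0.587). Lactb2 near Eya1 differed by 0.08 ± 0.12 (0.858), and Slc2a10, Trp53rka and Zmynd8 around Eya2 by -0.16 ± 0.15 (0.741), -0.06 ± 0.16 (0.934) and 0.04 ± 0.09 (0.919). Near Foxf1, Cox4i1, a subunit gene of the respiratory chain, differed by 0.20 ± 0.09 (0.485), and Irf8 was dim and not tested. The gene 1700018B08Rik beyond Foxl1 had 3.5, 1.8 and 1.2 in superior against 14.7, 12.0 and 5.5 in inferior pools, with no overlap and 2 of 6 arrays above background. Among all probe sets, 4.62% had all superior values below all inferior ones.

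For each tested member, the single-gene probe sets with the nearest pattern were found by the root mean square difference of log2 values, each less its own mean, over the 6 arrays and 19604 or 19605 candidates. Smaller values are more alike. For Foxc1 they were Mark2 (0.05) and Osbpl5 (0.06), which shared the low inferior 1 array, and for Foxc2 they were Nin (0.05) and Acvr1 (0.06), which shared the low pool 7 arrays. Foxf1 was nearest to Dlk1 (0.09) and Tbx4 (0.10), Six2 to Camk1g (0.14) and Dzip1 (0.15), and Eya1 to Tac2 (0.11) and 1110008P14Rik (0.21). All 6 matches of Foxf1, Six2 and Eya1 were highest on the inferior 7 array, such as Tac2 at 120.4 there and 18.9 to 51.1 on the others. Because matches were chosen by likeness of pattern, their sharing a member's high or low array is no separate result. Among the members themselves, Foxf1 and Six2 differed by 0.22, Foxf1 and Eya1 by 0.35 and Six2 and Eya1 by 0.45, while Foxc1 and Foxc2 differed by 0.32 and the Foxc1 probe sets from each other by 0.13.

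The cell types that share the tissue with the members were read from marker lists. Among them calls came from the epicardial and mesothelial list, 4 of 7 tested in the paired fit and 0 without the pool number, led by Tbx18 with 311.6, 426.0 and 179.8 in superior against 86.2, 129.7 and 40.1 in inferior pools (log2 1.86 ± 0.12, adjusted p = 0.00260). Upk1b, a mesothelial membrane protein, differed by 1.84 ± 0.23 (0.0411), and Aldh1a2, which makes retinoic acid, by 1.5 ± 0.19 (0.0411). With no filter on dim signals both had an adjusted p of 0.184, while Tbx18 had 0.0274. Of the other tested Upk1b probe sets, those at 2.13 (0.0300) and 1.41 (0.0294) were called and 1 at 0.15 (0.856) was not. Of 8 neural crest genes 6 were tested and 0 called (median log2 -0.43). Of the 6, 5 were lower in superior pools and 1 was higher, Sox10 at 0.31 ± 0.21 (0.626). Dlx2 had 38.0, 54.4 and 28.8 in superior against 101.2, 70.2 and 74.9 in inferior pools, with no overlap (-0.99 ± 0.20, adjusted p = 0.155). Erbb3 differed by -0.53 ± 0.10 (0.111) and Ngfr by -0.79 ± 0.21 (0.267). In the endothelial list 0 of 8 were called (median log2 0.03), with Emcn at 0.56 ± 0.17 (0.345), Cldn5 at 0.69 ± 0.35 (0.511) and Kdr at -0.22 ± 0.10 (0.466). In cardiac muscle 0 of 8 were called (median 0.24), with Nkx2-5 at -0.31 ± 0.09 (0.313), Tnni1 at 0.28 ± 0.09 (0.376) and Actc1 at 0.33 ± 0.11 (0.380). In cushion mesenchyme 0 of 8 were called (median -0.08), with Sox9 at -0.33 ± 0.10 (0.318), Col3a1 at 0.21 ± 0.09 (0.434) and Twist1 at -0.23 ± 0.11 (0.489). In epithelium 0 of 4 tested were called, with Krt18 at 0.27 ± 0.12 (0.450), Epcam at -0.28 ± 0.39 (0.836) and Krt8 at 0.02 ± 0.08 (0.955). Pax3, the 1 tested skeletal muscle progenitor gene, differed by -0.09 ± 0.25 (0.931). Of the 5 tested erythroid genes 0 were called, with Hbb-y at 0.24 ± 0.10 (0.450), Hbb-bh1 at 0.21 ± 0.12 (0.542) and Hba-x at 0.23 ± 0.14 (0.593). The values in parentheses are limma adjusted p-values of the paired fit, and the part of these cell types in the members' values was not tested.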

How the data were processed

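RNA of 3 superior and 3 inferior pools was measured on 1-colour arrays. MAS5, named in the submitters' processing notes without a version, was how the authors turned scans into the intensity values they deposited, which are on a linear scale. MAS5 takes mismatch signal off and scales each array, so dim probe sets are noisy and signals are relative to the array. Depth does not apply to arrays, and their number limits the precision. Of 45101 probe sets, 64 controls were left out. The platform annotation named 1 gene for 34945, several for 932 and none for 9160, and a RefSeq table (GRCm38.p6) changed 0 symbols.

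Values were turned into log2(signal + 3.2), the 25th percentile of all signals, which understates changes of dim genes. Probe sets with a mean above the median (a signal of about 15.1) were tested, 22518 in all. Regions were compared with limma 3.58.1 in R 4.3.3 (trend and robust variance) with the pool number as a block, leaving 2 residual degrees of freedom, and calls used a Benjamini-Hochberg adjusted p of 0.05. Same-numbered arrays of the regions deviated together (correlations across probe sets of 0.79, 0.43 and 0.51 for pools 1, 6 and 7), while unlike numbers gave between -0.54 and 0.20. Values were centred within each region, so high correlations for same numbers lower those for unlike numbers. These correlations cannot show that same-numbered pools share embryos, which the labels do not state. The fit was tested on simulated data. Members and lists were chosen with earlier results of these data known. Named genes were all members, the called genes and the 3 with the smallest p per pathway or cell type list, chromosome neighbours and the 2 nearest patterns. Alternatives covered the pool block, offset, filter, variance model, scaling and left-out pools or arrays.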

Additional observations from a re-analysis of the deposited data

How the results depend on the processing

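Across 18 other settings, 0 member probe sets were called, the lowest adjusted p being 0.367 for the dimmer Foxc1 probe set without pool 6. Not every member was tested in each setting. In the top 25% by signal, the brighter Foxc1 and the Foxc2 probe sets were the only members tested. Foxf1 (1434939_at) had no test without pool 7. Under settings that called no probe set of any gene, given below, a member could not be called. Of the settings, 4 change the test and leave the log2 difference as it is. Under the other 14, the 6 tested member probe sets gave 84 values, of which 71 kept their sign and 13 did not (or came to 0). Foxf1 (1434939_at) turned to 0.02 under quantile normalization and 0.03 under cyclic loess, and without the pool number to 0.04 without superior 1 and 0.03 without superior 6. The brightest Eya1 probe set came to 0.00 without superior 7 and -0.08 without inferior 1. Leaving out 1 array in the fit without the pool number gave a range of -0.26 to 0.32 for Foxf1, -0.67 to 0.02 for Six2, -0.31 to 0.82 for the brightest Eya1 and -0.03 to 0.33 for the brighter Foxc1 probe set. The upper ends of Foxf1, Six2 and Eya1 are those without the inferior 7 array, and the lower end of Foxc1 is that without inferior 1. Leaving out 1 pool in the paired fit gave -0.18 to 0.15, -0.58 to -0.11, -0.27 to 0.67 and 0.00 to 0.27 for the same probe sets. The values for the dim Foxf2 probe set 1418220_at were 0.74 with an offset of 1 and 0.31 with 16. The number of all probe sets called, 36 in the paired fit, was 0 without the replicate block, 22 with an offset of 1, 1 with no filter, 2 in the top 25% by signal and 0 without trend and robust variance. It ranged from 9 (without pool 1) to 231 (without pool 6) over left-out pools, with 113 without pool 7, and was 0 for each left-out array without the block. Genes called in the pathway lists numbered 1, Tcf21, and 0 without the replicate block. The causes were not tested, and with 2 residual degrees of freedom these counts rest on variance shared across probe sets. Foxf2, Eya2 and the dim Foxf1 and Eya1 probe sets lay around or below background, which limits what can be read from them.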
